A study of Mus musculus with 81 samples.

Results

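The genes described here encode the subunits, activators and assembly partners of the proteasome in single cells of the embryonic mouse pancreas. They were taken as every gene whose symbol begins with Psma, Psmb, Psmc, Psmd or Psme followed by a digit, which gave 44 of the 22869 genes measured. Where a gene had several transcript rows, the row of highest mean level over the cells stood for it (47 rows among 29510). Of the 44 genes, 31 encode the constitutive proteasome, 14 in the core particle and 17 in the regulatory particle. The other 13 are the interferon-induced catalytic subunits Psmb8, Psmb9 and Psmb10, the interferon-induced activator genes Psme1 and Psme2, the activators Psme3 and Psme4, the assembly chaperones Psmd5, Psmd9 and Psmd10, the core genes Psma8 (testis) and Psmb11 (thymus), and Psmc3ip, a meiotic recombination cofactor that shares only the prefix.

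All cells were dissociated from pancreata of 1 kind of embryo, wild-type mice of the CD1 strain taken at embryonic day 13.5, with no treatment, transgene or second condition. Messenger RNA of 81 single cells was amplified by SMARTer chemistry after capture on a microfluidic device and sequenced as 1 library per cell. The labels name no embryo or litter, so the cells are 1 sample and differences between cell classes have no replicate check and no test. Values were read as RPKM, which is reads normalised to transcript length and to the library's total. The unit is not given in the sources used, and the read numbers below are estimates from this reading. Differences are between means on the log2(RPKM + 1) scale.

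The proteasome degrades proteins tagged with ubiquitin. Its barrel-shaped core has outer rings of alpha subunits, which gate the entry, and inner rings of beta subunits, some of which carry the proteolytic sites. The regulatory particle caps the barrel: its non-ATPase subunits bind ubiquitin chains and remove them, and its ring of ATPases unfolds the substrate and threads it into the core. Interferon induces alternative catalytic subunits and the activator PA28, which shift the peptides produced toward those that MHC class I molecules present.

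The libraries held a median of 3535620 estimated reads, and 4 shallow cells (C3, C43, C61 and C94) held 420098 or fewer. A cell had 2353 to 6311 genes at 1 RPKM or more, with a median of 4057. Marker genes at 10 RPKM or more defined 65 stromal-like cells, 5 macrophage-like, 5 epithelial-like, 2 endocrine-like and 2 endothelial-like cells, and 2 cells stayed unnamed. Of the progenitor genes that define the pancreatic epithelium, Pdx1 reached 1 RPKM in 1 cell, Sox9 in 29 and Ptf1a in 0, so most of these cells do not carry the labelled organ's epithelial markers. Stromal marker RNA was present outside the stromal-like class: Col1a2, a fibrillar collagen, reached 10 RPKM in 4 of 5 macrophage-like and 4 of 5 epithelial-like cells, against 64 of 65 stromal-like cells.

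Constitutive proteasome genes were among the widely detected genes of these cells. Of the 31, 29 reached 1 RPKM in at least 50% of cells, a breadth reached by 13.1% of all genes. The exceptions were Psmd3 and Psmd13, lid subunits of the regulatory particle, at 35 and 36 of 81 cells. Psmb6, a catalytic subunit, and Psma7, an alpha ring subunit, reached 1 RPKM in 81 of 81 cells. A cell had between 16 and 31 of the 31 genes at 1 RPKM or more, with a median of 25. Together the 31 genes made up a median of 0.878% of a cell's summed RPKM (range 0.447% to 1.76%).

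**Figure D1:**
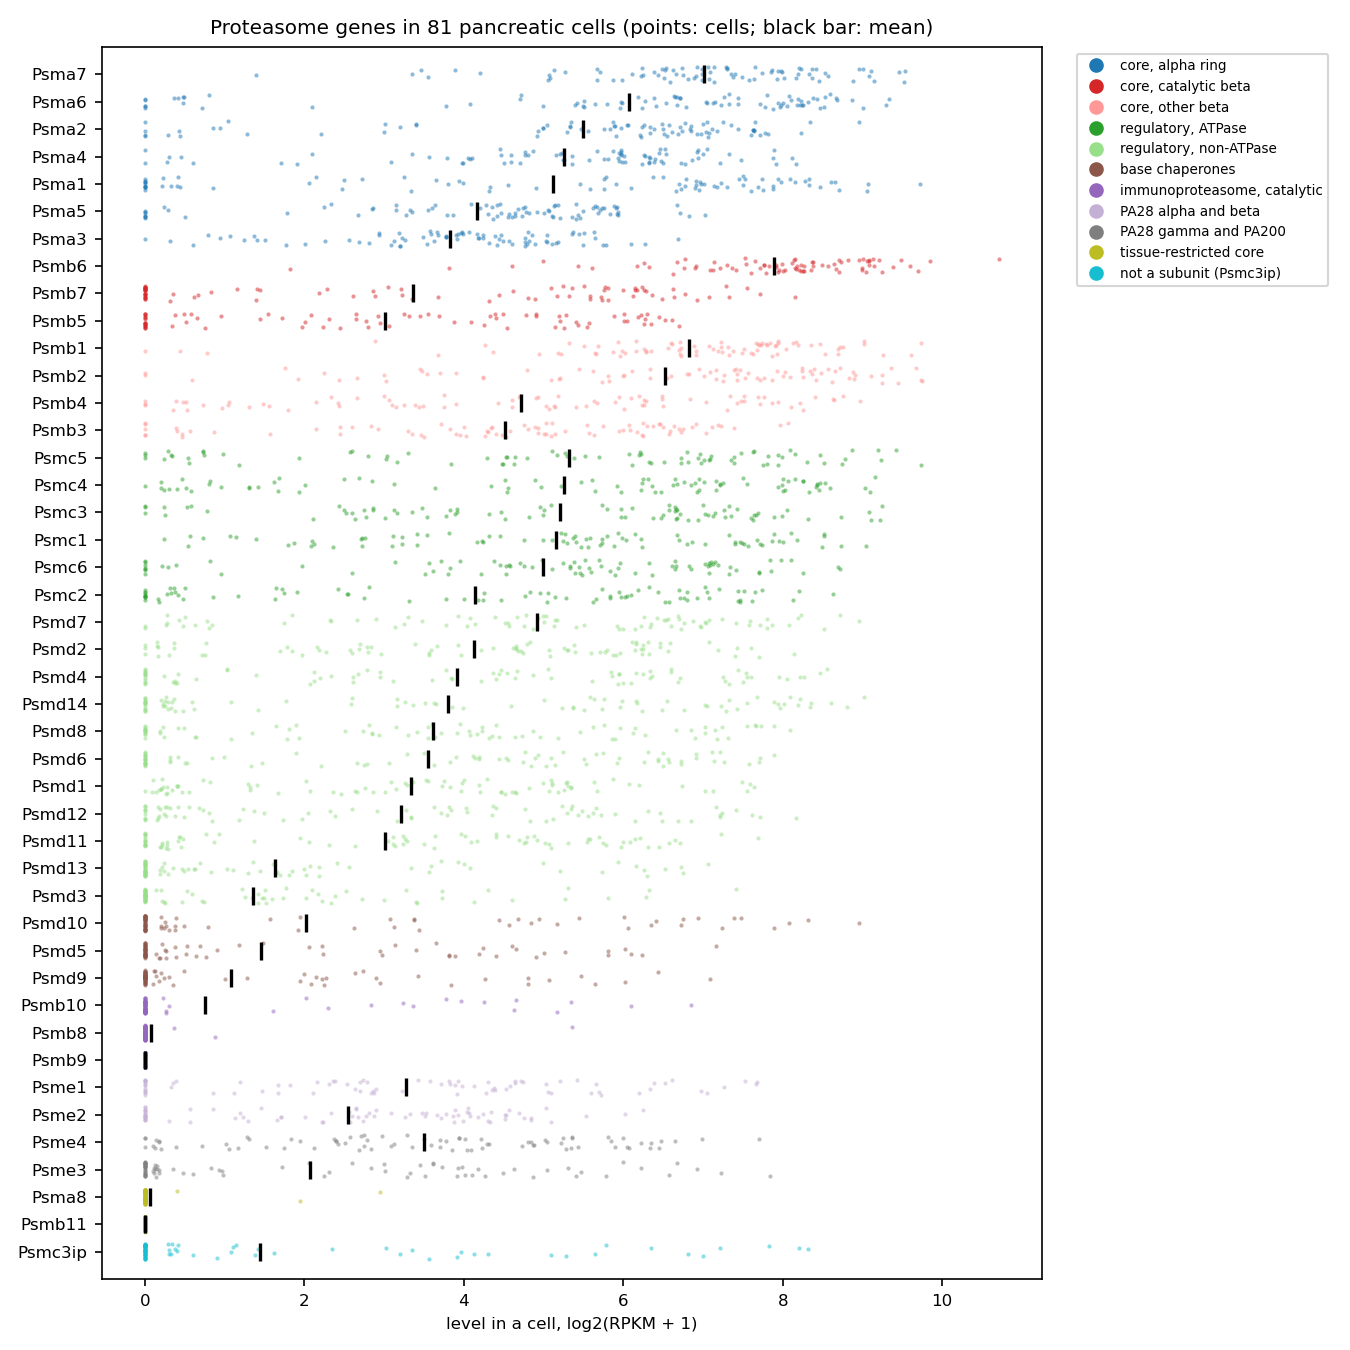
Level of each of the 44 genes in each of the 81 cells, as log2(RPKM + 1) on the horizontal axis, grouped and coloured by role, with the mean over cells as a black bar. Psmb6 and Psma7 lie to the right in nearly every cell, whereas Psmb8, Psmb9, Psma8 and Psmb11 lie at or near 0.

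The alpha ring genes were high as a group, with a median over the 7 genes of 5.26 for the mean log2 level. Psma7 ranged from 1.63 to 740.2 RPKM over the cells, with a median of 135.1 RPKM. Psma6 had a median of 109.3 RPKM and Psma2 of 75.3 RPKM, and both were listed at 0 in some cells. At the lower end of the ring, Psma5 had a median of 24.03 RPKM and Psma3 of 14.8 RPKM. Psma3 was low but even: it reached 1 RPKM in 76 cells, and its SD between cells of 1.47 was the smallest of the alpha genes. Psma1 had the opposite pattern, with a median of 89.8 RPKM, 64 cells at 1 RPKM and an SD of 3.08 on the log2 scale. Neighbouring genes in this order differed by less than the SD between cells.

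The catalytic beta subunits were not detected alike, although each core carries them in equal number. Psmb6, which has the caspase-like site, had a median of 283.6 RPKM and a highest value of 1676 RPKM in C43, a shallow cell. Psmb7, which has the trypsin-like site, had a median of 9.24 RPKM and reached 1 RPKM in 53 of 81 cells (65.4%, exact 95% binomial interval 54.04% to 75.7%). Psmb5, which has the chymotrypsin-like site and is the main target of proteasome inhibitor drugs, had a median of 6.70 RPKM and reached 1 RPKM in 55 cells (67.9%, interval 56.6% to 77.8%). Both genes split the cells: Psmb7 was at 10 RPKM or more in 40 cells and listed at 0 in 23. The intervals cover counting error over cells only. Psmb5 lies on mm9 chromosome 14, 55232957 to 55236832, minus strand, and shares 57.1% of its 50-base windows with transcripts of other genes, so its level is uncertain. Psmb6 lies on mm9 chromosome 11, 70338859 to 70341360, plus strand, and Psmb7 on chromosome 2, 38443566 to 38499426, minus strand. Psmb7 shares 28.1% of its windows with Nek6.

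Among the structural beta subunits, Psmb2 and Psmb1 were each at 1 RPKM in 78 of 81 cells, with medians of 151.4 and 148.5 RPKM. Psmb4 and Psmb3 were lower, at medians of 32.7 and 29.5 RPKM. Of these genes, Psmb3 shares 55.8% of its windows with other transcripts.

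The 6 ATPases of the regulatory particle formed a narrow group. Their mean log2 levels ran from 4.14 (Psmc2) to 5.31 (Psmc5), a range smaller than the SD between cells of any of them (2.33 to 2.90). Psmc1 had the widest detection among them, above 0 in 81 cells and at 1 RPKM in 77. The highest median RPKM was that of Psmc4, at 78.3, and the lowest that of Psmc2, at 30.1. Both stayed within the spread of the other ATPases.

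The non-ATPase subunits covered a wider and lower range, with a median over 11 genes of 3.56 for the mean log2 level. Psmd7, a lid scaffold that pairs with the deubiquitinase Psmd14, was the highest, at a median of 34.3 RPKM and 69 cells at 1 RPKM. Psmd2, the large scaffold of the base that docks shuttle proteins, followed at a median of 24.2 RPKM. Psmd4, a ubiquitin receptor, had a median of 19.6 RPKM. At the low end stood Psmd11 (median 8.44 RPKM), Psmd13 (0.456 RPKM) and Psmd3 (0.190 RPKM). Psmd3 and Psmd13 reached 10 RPKM in 11 and 17 cells. The level of the 31 genes had a Pearson r of -0.40 with transcript length over the genes, given as a description, since the genes share their libraries.

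Core genes were higher than regulatory genes per subunit, with medians of 5.19 and 3.91 for the mean log2 level. Within the regulatory particle this held for the 11 non-ATPase genes (median 3.56), whereas the 6 ATPases, at 5.18, were close to the core. Within a cell, the RPKM sum per core subunit over that per regulatory subunit had a median of 1.94 and ranged from 0.432 to 5.002. Over the 81 cells the mean of the 14 core genes and the mean of the 17 regulatory genes had a Pearson r of 0.56 (Spearman rho 0.56), and 0.46 within the 65 stromal-like cells. The mean of all 31 genes also moved with the number of genes at 1 RPKM in the cell, with r = 0.65 over 81 cells. Both points of each cell share its library, its depth and its total, and the part of these in the relation was not tested. Without the 4 shallow cells the core-regulatory r was 0.55 (n = 77).

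**Figure D2:**
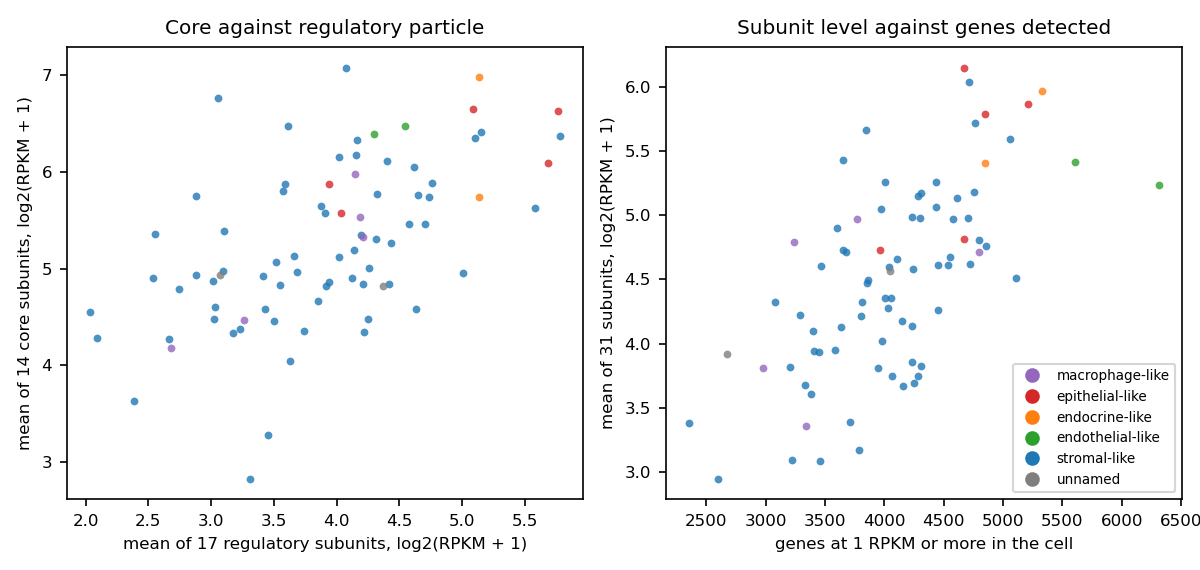
Left, mean level of the 14 core genes against that of the 17 regulatory genes in each of 81 cells; right, mean level of all 31 genes against the number of genes at 1 RPKM or more; points are cells coloured by class. Levels rise together in both panels, with r = 0.56 on the left and 0.65 on the right.

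Single subunit genes showed little of this joint movement. Over the 406 pairs of the 29 widely detected constitutive genes, the median Pearson r across 81 cells was 0.07, against 0.03 over all pairs of the 2985 widely detected genes. The highest value was 0.38, for Psma4 with Psmc6. The lowest was -0.24, for Psmc1 with Psmc6, both ATPases of the same ring. At this sparsity weak correlations are no finding. The median SD between cells of the 31 genes was 2.45, against 2.24 for the 4610 genes with mean levels in the same range.

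The interferon-induced catalytic subunits were nearly undetected. Psmb9, the counterpart of Psmb6, was listed at 0 in every cell. Subunits that every cell needs were also listed at 0 in some cells (Psmb7 in 23), so a listed 0 sets no limit on the share of cells that express a gene. Psmb8, the counterpart of Psmb5, was above 0 in 3 cells: the macrophage-like cells C31 (40.1 RPKM) and C2 (0.846 RPKM) and 1 stromal-like cell at 0.284 RPKM. It therefore passed 1 RPKM in 1 cell of 81 (1.23%, exact interval 0.0313% to 6.69%). Psmb10, the counterpart of Psmb7, differed from both: it reached 1 RPKM in 15 cells (18.5%, interval 10.8% to 28.7%) and 10 RPKM in 9. Of those 15 cells, 12 were stromal-like, with the highest value of 114.5 RPKM in C21, 1 was epithelial-like at 2.04 RPKM, and the remaining ones were both endothelial-like cells at 3.92 and 3.07 RPKM. In all 5 macrophage-like and both endocrine-like cells Psmb10 was listed at 0. In mm9, Psmb8 spans 34335140 to 34338399 on the plus strand and Psmb9 34319044 to 34324275 on the minus strand of chromosome 17, in the MHC region, and Psmb10 spans 108459628 to 108462292 on the minus strand of chromosome 8.

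The PA28 genes, which are also interferon-induced but have a basal level in many tissues, were detected in most cells. Psme1, the alpha subunit, reached 1 RPKM in 63 cells (77.8%, interval 67.2% to 86.3%), with a median of 9.75 RPKM and a highest value of 204.3 RPKM. Psme2, the beta subunit, reached it in 59 cells (72.8%, interval 61.8% to 82.1%), with a median of 5.63 RPKM and a highest value of 74.9 RPKM. Psme2 shares 59.3% of its windows with other transcripts, and its level is uncertain for that reason. PA28 was thus detected in many cells in which Psmb8 and Psmb9 were listed at 0. Of the activators that are not interferon-induced, Psme4, the PA200 activator linked to histone degradation, reached 1 RPKM in 70 cells, and Psme3, the nuclear PA28 gamma, in 37.

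**Figure D3:**
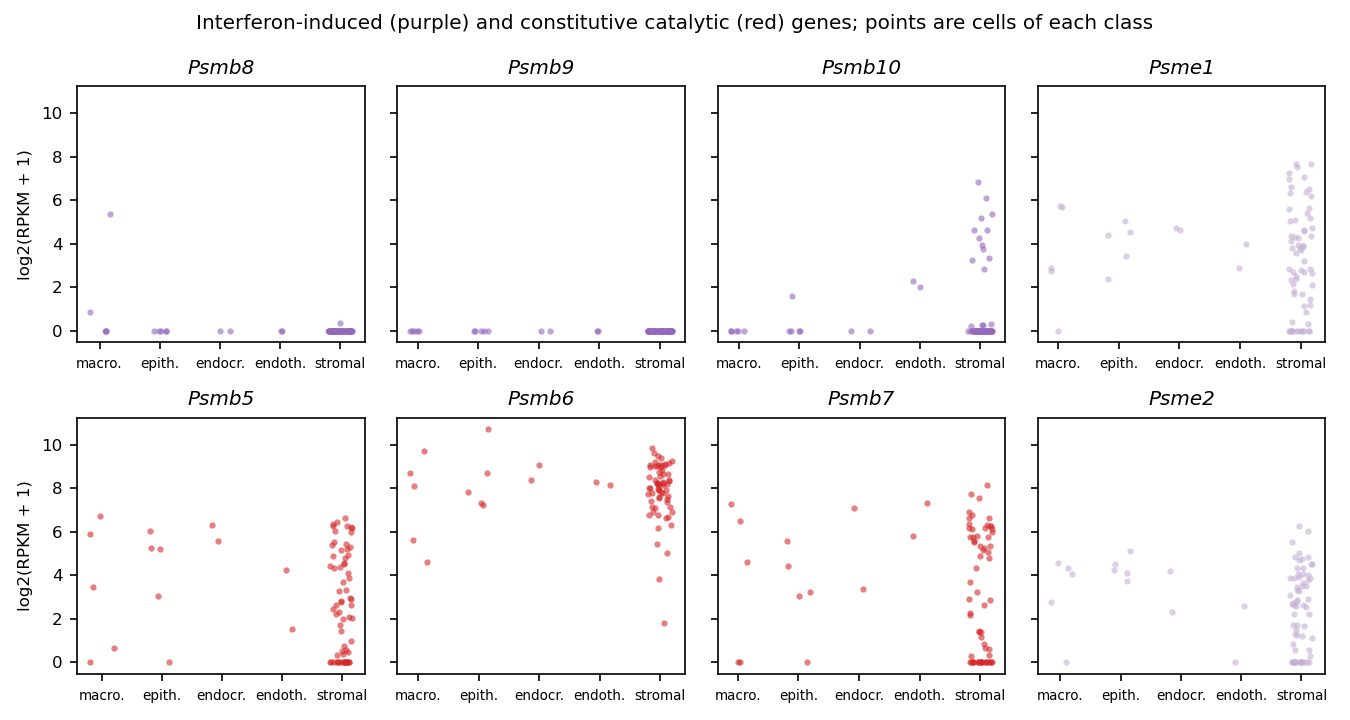
Level in each cell, as log2(RPKM + 1), of the interferon-induced genes Psmb8, Psmb9, Psmb10, Psme1 and Psme2 and of the constitutive catalytic genes Psmb5, Psmb6 and Psmb7, by cell class; each point is a cell. Psmb9 is at 0 in every cell and Psmb8 above 1 RPKM in 1 macrophage-like cell, whereas Psme1 and Psme2 are spread over all classes.

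The assembly chaperones of the regulatory base were detected in fewer cells than the subunits they assemble. Psmd10 reached 1 RPKM in 30 cells, Psmd5 in 27 and Psmd9 in 24. Psmd10 was uneven, with a highest value of 494.7 RPKM and a median of 0.154 RPKM. The testis gene Psma8 reached 1 RPKM in 2 cells, the thymus gene Psmb11 was listed at 0 in every cell, and Psmc3ip reached it in 26 cells. Of the 44 genes, 42 were above 0 in at least 3 cells.

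Promoter sequences are shown for the constitutive catalytic genes Psmb5 and Psmb6, for the interferon-induced counterparts Psmb8 and Psmb9 that were at or near 0, and for Psmd12 and Psmc2, whose windows hold an ETS core close to the start. Each is the 250 bases before the annotated start, 5′ to 3′ in the direction of transcription, from RefSeq on GRCm38.p6, and capitals mark motif letters found by search on both strands. The windows are chr14:54617996-54618245 (minus strand) for Psmb5, chr11:70525107-70525356 (plus) for Psmb6, chr17:34197945-34198194 (plus) for Psmb8, chr17:34187331-34187580 (minus) for Psmb9, chr11:107479278-107479527 (plus) for Psmd12 and chr5:21786497-21786746 (plus) for Psmc2.
Psmb5: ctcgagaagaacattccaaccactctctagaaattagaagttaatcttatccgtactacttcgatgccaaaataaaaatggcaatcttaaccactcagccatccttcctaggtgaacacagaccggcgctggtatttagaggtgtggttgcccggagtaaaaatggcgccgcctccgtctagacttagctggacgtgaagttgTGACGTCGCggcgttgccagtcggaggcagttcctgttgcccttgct
Psmb6: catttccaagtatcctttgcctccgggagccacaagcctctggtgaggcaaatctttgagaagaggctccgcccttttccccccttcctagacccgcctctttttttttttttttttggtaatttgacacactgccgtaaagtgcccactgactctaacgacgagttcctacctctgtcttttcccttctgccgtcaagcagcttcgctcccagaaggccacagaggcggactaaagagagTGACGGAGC
Psmb8: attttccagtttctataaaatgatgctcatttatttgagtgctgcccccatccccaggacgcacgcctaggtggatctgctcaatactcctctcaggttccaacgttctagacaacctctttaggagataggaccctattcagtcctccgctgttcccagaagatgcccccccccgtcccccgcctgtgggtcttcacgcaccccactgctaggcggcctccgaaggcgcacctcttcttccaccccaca
Psmb9: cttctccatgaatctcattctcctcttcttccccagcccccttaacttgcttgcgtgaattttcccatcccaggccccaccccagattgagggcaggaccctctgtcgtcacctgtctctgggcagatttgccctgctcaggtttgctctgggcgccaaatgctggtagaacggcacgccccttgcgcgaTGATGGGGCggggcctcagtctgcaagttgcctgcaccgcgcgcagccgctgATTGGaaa
Psmd12: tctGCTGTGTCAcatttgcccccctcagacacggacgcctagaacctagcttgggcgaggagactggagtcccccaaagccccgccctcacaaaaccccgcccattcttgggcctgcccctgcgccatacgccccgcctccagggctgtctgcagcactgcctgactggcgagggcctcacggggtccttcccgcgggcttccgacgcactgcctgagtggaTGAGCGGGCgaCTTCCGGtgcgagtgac
Psmc2: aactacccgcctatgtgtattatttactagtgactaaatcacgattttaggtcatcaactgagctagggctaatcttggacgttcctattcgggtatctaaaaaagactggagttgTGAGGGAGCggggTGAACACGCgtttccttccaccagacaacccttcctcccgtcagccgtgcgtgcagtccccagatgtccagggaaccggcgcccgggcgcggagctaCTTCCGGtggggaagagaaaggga

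The motifs searched were the antioxidant response element core TGANNNNGC, which Nfe2l1 and Nfe2l2 bind, CCAAT, the interferon-stimulated element core (GAAA, any pair of bases, GAAA), and the ETS core CCGGAAG. Of the 44 genes, 37 had a promoter in the RefSeq table, among them 25 of the 31 constitutive genes. CCGGAAG was present in 9 of the 25 (36%), against 19.2% of the 2186 widely detected genes with a promoter and 6.91% of all 32851 promoters. A gene counted where any of its promoters held the motif, whereas the 32851 promoters were counted singly. The 9 genes were Psma6, Psmc1, Psmc2, Psmc6, Psmd2, Psmd4, Psmd6, Psmd11 and Psmd12. Of these, 8 belong to the regulatory particle, but how the 25 divide between core and regulatory genes was not counted. TGANNNNGC was present in 9 of 25 (36%), against 41.1% of widely detected genes and 35.2% of all promoters, and CCAAT in 10 of 25 (40%), against 41.5% and 33.8%. The interferon-stimulated core was in 2 of 25 constitutive windows (8%) and in 0 of 5 windows of the interferon-induced genes, against 2.98% of all promoters. Among the windows printed, TGANNNNGC begins 9 bases before the start in Psmb6, 47 before it in Psmb5, 60 before it in Psmb9, 247 and 28 before it in Psmd12, and 134 and 121 before it in Psmc2. CCAAT, read on the other strand as ATTGG, begins 8 bases before the start in Psmb9, the ETS core begins 17 bases before the start in Psmd12 and 24 before it in Psmc2, and no matches overlap. A match describes the letters of the window and not binding.

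Macrophage-like cells had about the same overall level of constitutive proteasome genes as stromal-like cells. The mean of the 31 genes was 4.33 ± 0.71 in macrophage-like cells and 4.42 ± 0.69 in stromal-like cells (SD over 5 and 65 cells, log2 scale). Of the 31, 5 (16.1%) were higher by at least 1 log2 unit, where 11.3% of the 13237 genes tested were. Another 7 (22.6%) were lower, where 12.9% of the genes tested were. Among the 2985 widely detected genes, 12.4% were higher and 31.8% lower. With 31 genes these counts do not set the members apart from other genes, and the genes below are described singly. The median difference of the 31 genes was -0.02, against -0.45 for the widely detected genes. Against the 38 cycling stromal-like cells, an alternative chosen after seeing the data, 3 of the 31 genes were higher, where 10.4% of all genes tested and 10.3% of widely detected genes were, and 10 were lower, where 15.2% and 36% were.

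Psmd14, the deubiquitinase of the lid that cleaves ubiquitin chains from the substrate, was the member furthest apart. It had 235.3, 326.9, 296.7, 71.1 and 154.9 RPKM in the macrophage-like cells C2, C3, C31, C36 and C54, against a lowest, median and highest value of 0, 7.96 and 517.6 RPKM in stromal-like cells. All 5 macrophage-like cells were above the stromal-like median, although the ranges overlap, and the difference was 4.19 log2 units (3.70 to 5.32 over the alternatives run). Psmc5, an ATPase, had 45.1, 78.99, 853.4, 38.4 and 682.9 RPKM in the same cells, against 0, 65.99 and 599.3 RPKM in stromal-like cells, a difference of 2.21. For Psmc5 it was the cells C31 and C54 that were high, and 2 of the others lay below the stromal-like median. Psmd3 was higher by 1.804, Psmd4 by 1.25 and Psmb2 by 1.05, and all of them depended on single cells. The difference of Psmd3 rested on C2 (169.5 RPKM) and was 0.68 without it. That of Psmd4 was 0.93, 0.83 and 0.97 without C3, C31 or C36, and that of Psmb2 was 0.86, 0.74 and 0.64 without C2, C3 or C54.

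Lower in macrophage-like cells were the ATPase Psmc2 and the alpha subunit Psma5. Psmc2 was listed at 0 in C2, C3 and C54, at 0.285 RPKM in C31 and at 49.4 RPKM in C36, against 0, 30.1 and 394.7 RPKM (lowest, median, highest) in stromal-like cells, a difference of -2.996. Psma5 had 18.7, 0, 0.412, 24.5 and 0 RPKM in C2, C3, C31, C36 and C54, against 0, 25.8 and 129.3 RPKM in stromal-like cells, a difference of -2.48. All 5 macrophage-like cells were below the stromal-like median for Psma5, and 4 of 5 for Psmc2. The lid genes Psmd7 (-1.84), Psmd11 (-1.71) and Psmd13 (-1.22) were lower as well. The lid gene Psmd8 (-1.21) and the ATPase Psmc3 (-1.30) depended on single cells: Psmd8 was at -0.58 without C2 or without C3 and -0.68 without C31, and Psmc3 at -0.38 without C3 or without C54. The chaperones Psmd10 (-2.08) and Psmd5 (-1.45) were below 1 RPKM in all 5 macrophage-like cells, but reached it in only 26 and 24 of 65 stromal-like cells. Psma5 shares 55.4% of its windows with other transcripts.

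Among the interferon-induced genes, Psmb8 was higher by 1.24 in macrophage-like cells, all but a small part of it from C31, while Psmb10 was lower by 0.85 and Psmb9 was listed at 0 in both classes. Psme1 had 6.34, 51.95, 5.68, 50.7 and 0 RPKM in C2, C3, C31, C36 and C54, against a stromal-like median of 8.31 RPKM, and Psme2 had 22.7, 0, 19.2, 5.84 and 15.5 RPKM, against a median of 5.28 RPKM. Their differences were 0.15 and 0.72. The macrophage-like cell C3 held an estimated 19854 reads, where 1 read in a transcript of 1 kilobase is worth 50.4 RPKM, so its zeros say little. At 10 RPKM it passed 4 of 9 macrophage markers and 5 of 7 stromal markers. The class also held stromal marker RNA, with a summed log2 level over 7 markers of 15.7 to 35.3 (highest in C3, and at most 27.8 without it), against 22.04 to 42.8 in stromal-like cells. The part of either in these differences was not tested.

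**Figure D4:**
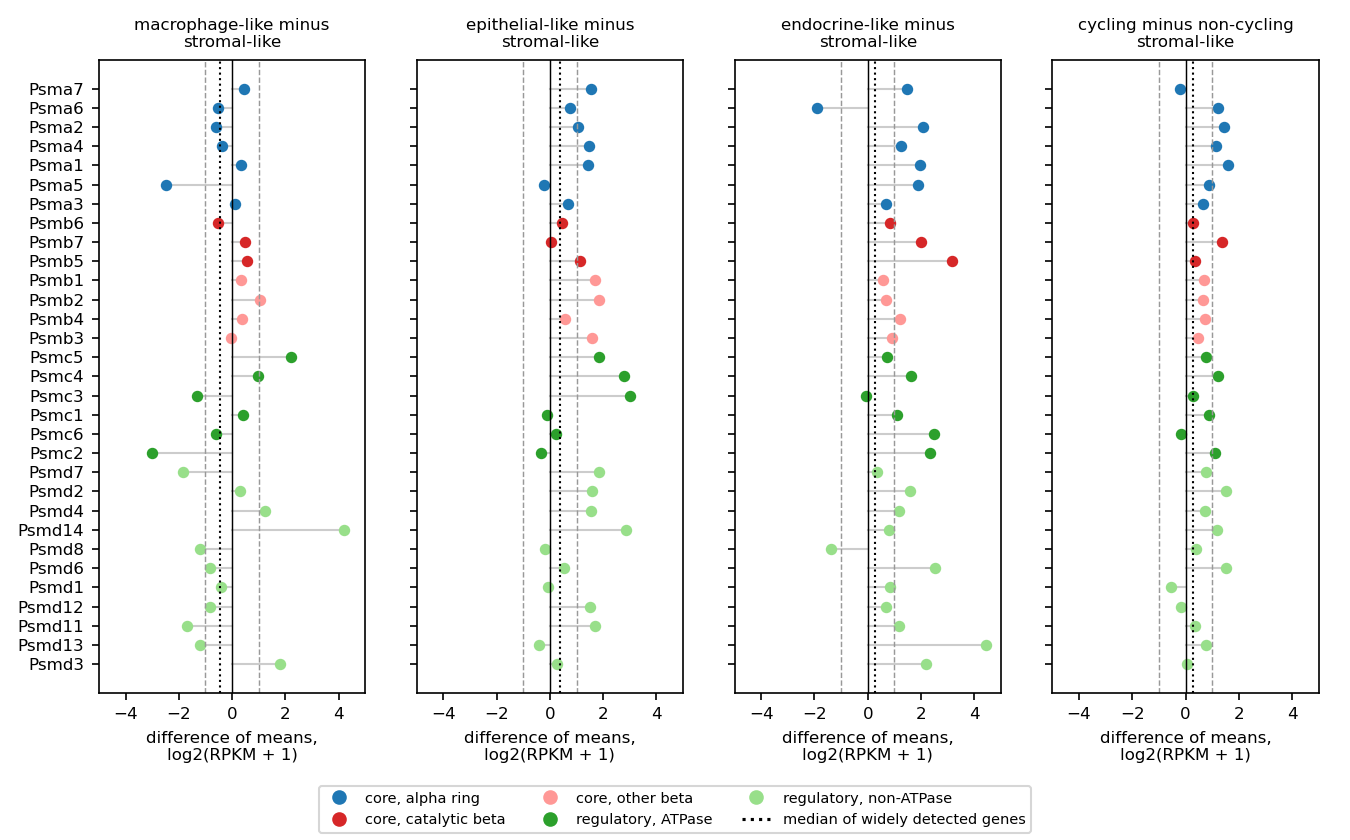
Difference of mean log2(RPKM + 1) for each of the 31 constitutive genes in the 4 comparisons, coloured by role; dashed lines mark 1 log2 unit either way and the dotted line the median of widely detected genes. Macrophage-like differences lie on both sides of 0, epithelial-like and cycling differences mostly to the right, and endocrine-like differences rest on 2 cells.

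Epithelial-like cells had higher constitutive proteasome levels than stromal-like cells. The mean of the 31 genes was 5.79, 5.87, 6.16, 4.73 and 4.81 in C95, C43, C82, C91 and C47, against a lowest, median and highest value of 2.95, 4.48 and 6.04 in stromal-like cells. All 5 epithelial-like cells were above the stromal-like median and 1 was above the whole stromal-like range. Of the 31 genes, 17 were higher by at least 1 log2 unit, where 18.2% of all genes tested and 28.2% of the widely detected genes were, and 0 were lower, where 5.68% and 11.7% were. The median difference was 1.14, against 0.36 for the widely detected genes. Core and regulatory genes contributed alike, with 8 of 14 and 9 of 17 higher.

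The ATPases Psmc3 and Psmc4 and the lid deubiquitinase Psmd14 were furthest apart. Psmc3 had 541.7, 63.8, 205.8, 252.7 and 594.3 RPKM in C43, C47, C82, C91 and C95, against 0, 33.1 and 548.0 RPKM (lowest, median, highest) in stromal-like cells, a difference of 3.01. Psmc4 had 520.4, 128.0, 303.4, 284.9 and 74.6 RPKM in the same cells, against 0, 61.7 and 571.4 RPKM, a difference of 2.78. Every epithelial-like cell exceeded the stromal-like median for both genes. Psmd14 had 131.3, 47.1, 129.3, 48.6 and 61.1 RPKM, against a stromal-like median of 7.96 RPKM, a difference of 2.85. Psmb1 was the most even, at 278.0, 240.4, 413.6, 413.5 and 285.7 RPKM, against 0, 134.4 and 849.5 RPKM in stromal-like cells, a difference of 1.70. Psmb2 (1.86), Psmd7 (1.83) and Psmc5 (1.83) completed the 8 largest with Psme2 of the PA28 activator (1.91). The catalytic gene Psmb5 was higher by 1.14 (0.80, 0.61 and 0.81 without C82, C91 or C95), and Psmb6 and Psmb7 by less than 1.

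Of the interferon-induced genes in epithelial-like cells, Psme2 had 15.95, 12.2, 17.9, 21.8 and 33.3 RPKM in C43, C47, C82, C91 and C95, against a stromal-like median of 5.28 RPKM. Psme1 was higher by 0.69 and Psmb10 lower by 0.53, and Psmb8 was listed at 0 in all 5 cells. Psme4 was higher by 1.61.

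All 5 epithelial-like cells, both endocrine-like cells and 38 of 65 stromal-like cells expressed at least 5 of 25 mitotic (G2/M) genes, so class and cycling were not separated in the comparison above. Against the 38 cycling stromal-like cells 13 of the 31 genes were higher in epithelial-like cells by at least 1 log2 unit and 0 were lower, where 16.2% of all genes tested and 23.3% of widely detected genes were higher and 7.27% of all genes tested were lower. The median difference was then 0.78. Epithelial-like cells also had more genes at 1 RPKM, with a median of 4669 against 4039 in stromal-like cells, and the part of this in the differences was not tested. A high level was not particular to epithelial-like cells: the endothelial-like cells C22 and C72 had means of 5.41 and 5.24 over the 31 genes. Both also expressed at least 5 G2/M genes and had 5606 and 6311 genes at 1 RPKM.

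**Figure D5:**
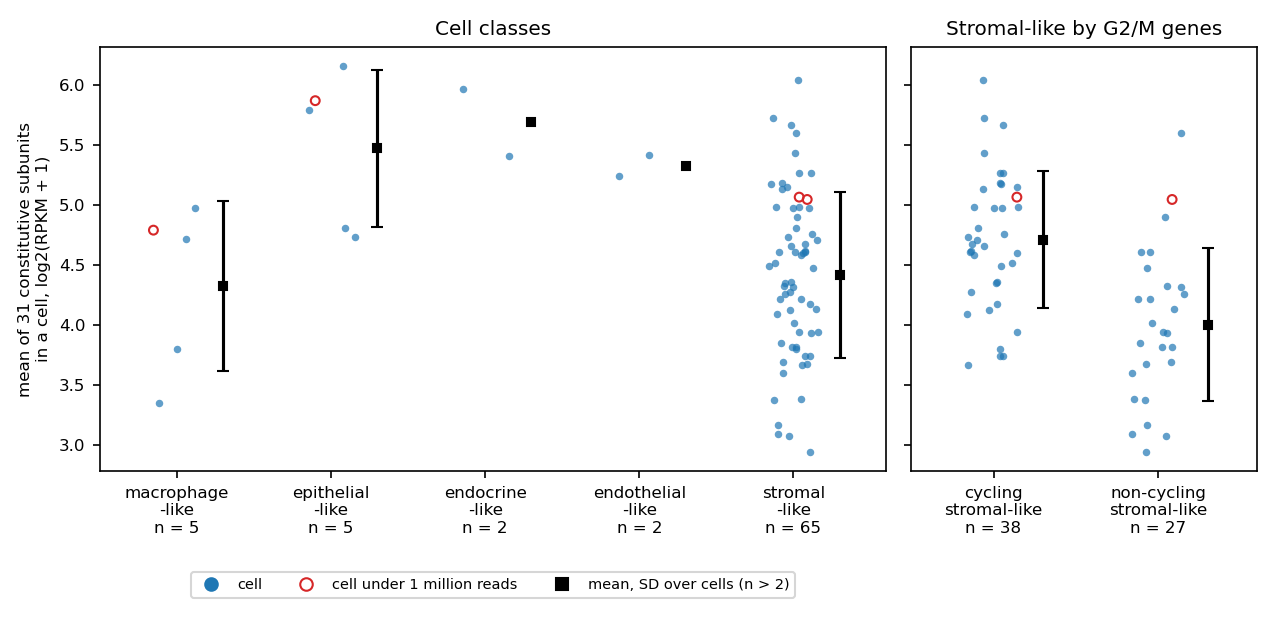
Mean log2(RPKM + 1) of the 31 constitutive genes in each cell, by class (left) and by G2/M genes within stromal-like cells (right); squares and bars are the mean and SD over cells where a class has more than 2, and red circles are shallow cells. Epithelial-like cells lie at 4.73 to 6.16 and cycling stromal-like cells average 4.71, against 4.005 in non-cycling ones.

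In the 2 endocrine-like cells the constitutive genes were also higher, with means of 5.97 in C24 and 5.41 in C56, against a stromal-like median of 4.48. Of the 31 genes, 18 were higher by at least 1 log2 unit, where 24% of all genes tested and 31.9% of widely detected genes were, and 2 were lower, where 12.2% and 21.8% were. The median difference was 1.17, against 0.27 for widely detected genes. Both cells also had more genes at 1 RPKM, 5328 in C24 and 4844 in C56, against a median of 4039 in stromal-like cells, and the part of this in the differences was not tested. Leaving out 1 of the cells turned the direction of 6 of the 26 member genes that were at least 1 log2 unit apart, and genes high in both cells are given first.

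Psmd13, a lid subunit listed below 1 RPKM in most cells, had 75.7 RPKM in C24 and 59.99 RPKM in C56, against 0, 0.612 and 132.4 RPKM (lowest, median, highest) in stromal-like cells, a difference of 4.44. Psmb5 had 77.5 and 46.6 RPKM, against 0, 5.26 and 97.0 RPKM, a difference of 3.16, on a gene whose windows are largely shared. Psmd6, a lid subunit, had 45.2 and 89.2 RPKM, against a stromal-like median of 16.4 RPKM. Both cells were above the stromal-like median for each of these genes and within its range. The ATPases Psmc6 (2.48) and Psmc2 (2.34) and the alpha gene Psma2 (2.07) were high in both cells too. Psmd3 (2.17) and Psmb7 (2.01) rested on 1 cell each: Psmd3 had 0.674 RPKM in C24 and 54.95 RPKM in C56, and Psmb7 133.5 and 9.24 RPKM.

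Lower in the endocrine-like cells were the chaperones Psmd10 (-2.28) and Psmd5 (-1.58), listed at 0 in both cells, against stromal-like medians of 0.195 and 0.194 RPKM, and Psme3 (-1.99), for which C24 had 0.110 RPKM and C56 0.0916 RPKM, against a stromal-like median of 0.772 RPKM. Psme4 was lower by 1.02 and Psmc3ip by 1.25. Psma6 had 343.3 RPKM in C24 and was listed at 0 in C56, and Psmd8 had 25.6 RPKM and 0, so their differences of -1.91 and -1.38 came from C56. Psme1 was higher by 1.43, at 23.95 and 25.7 RPKM, Psme2 was higher by 0.83, and Psmb8, Psmb9 and Psmb10 were listed at 0 in both cells. Against cycling stromal-like cells 14 of the 31 genes were higher by at least 1 log2 unit, where 22.7% of all genes tested were, and 2 were lower, where 13.8% were.

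Within stromal-like cells, cycling cells had higher constitutive proteasome levels than non-cycling cells. The mean of the 31 genes was 4.71 ± 0.57 in 38 cycling cells and 4.005 ± 0.64 in 27 non-cycling cells (SD over cells). Of the 31 genes, 10 were higher by at least 1 log2 unit, where 5.26% of all genes tested and 12.4% of widely detected genes were, and 0 were lower, where 0.846% and 1.14% were. The median difference was 0.74, against 0.27 for the widely detected genes, and 27 of the 31 differences were above 0. The 10 genes were 5 core and 5 regulatory genes.

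Psmd2, the base scaffold, reached 1 RPKM in 35 of 38 cycling cells and 19 of 27 non-cycling cells, with medians of 32.7 and 6.12 RPKM and a difference of 1.53. Psmd6 was at 1 RPKM in 29 of 38 cycling cells and 15 of 27 non-cycling cells, with medians of 24.4 and 2.71 RPKM and a difference of 1.51. Psmb7, the trypsin-like subunit, had a median of 34.9 RPKM in cycling cells and 1.65 RPKM in non-cycling cells, a difference of 1.36. These 3 genes stayed at least 1 log2 unit apart in every alternative run. No run addressed shared sequence: Psmb7 shares 28.1% of its windows with Nek6, and Psmd2 26.4% with other transcripts. Psma1 had the largest difference (1.59, medians 101.6 and 14.3 RPKM), but among cells numbered 1 to 48 it was -1.53. Psma2 (1.46), Psmc4 (1.21), Psma6 (1.20) and Psmd14 (1.17) were the others of the 8 largest. Ranges of cycling and non-cycling cells overlapped for every gene named here.

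The catalytic genes Psmb5 and Psmb6 each differed by less than 1 log2 unit, short of the cutoff that Psmb7 passed. The interferon-induced genes did not reach the cutoff either, with Psme1 at -0.38, Psme2 at 0.44 and Psmb10 at 0.62. Psmb10 reached 1 RPKM in 9 of 38 cycling and 3 of 27 non-cycling cells.

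Cycling stromal-like cells also had more genes at 1 RPKM (median 4235, against 3712) and more estimated reads (median 3927000, against 3143420 in non-cycling cells). The part of these in the difference was not tested. The cells were also split by the number in their label, with a cut at 48 that the labels do not name. Of the stromal-like cells, 23 of 30 numbered 1 to 48 were cycling, against 15 of 35 numbered 49 to 96. The difference in the mean of the 31 genes was 0.74 among cells 1 to 48 and 0.60 among cells 49 to 96. Cycling cells were also spread unevenly over the wells named in the deposited header, with 0 cycling and 8 non-cycling stromal-like cells in plate column 4 and no non-cycling ones in columns 1 and 2. The difference was above 0 in 7 of the 7 plate columns and 6 of the 7 plate rows with at least 2 cells of each kind, and was -0.11 in row G (8 cycling and 3 non-cycling cells).

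The other genes of the pathway were described over 6 lists, with the background shares given above for each comparison. The assembly list of 6 genes holds assembly chaperones and Psmf1, a proteasome inhibitor gene. Of these genes, Pomp, the chaperone that drives core maturation, had a median of 157.6 RPKM and 78 cells at 1 RPKM. Psmg2, a chaperone of the alpha ring, had a median of 0.955 RPKM and 40 cells. Cofactors bound to the particle were led by Shfm1, a small lid subunit with a median of 215.0 RPKM, and Usp14, a deubiquitinase of the base at 10.1 RPKM. The shuttle and segregase list was led by Ufd1l (7.59 RPKM) and Ubqln1 (5.16 RPKM). Of the ubiquitin genes, Ubb was at 333.3 RPKM or more in every cell and the ubiquitin-activating enzyme Uba1 had a median of 29.6 RPKM and 67 cells at 1 RPKM. The transcription factors Nfe2l2 and Nfe2l1, which activate subunit genes under stress, reached 1 RPKM in 45 and 62 cells. Calr and Pdia3, which help to load MHC class I molecules, reached it in 81 and 75 cells. The peptide transporter genes Tap1 and Tap2 and the MHC class I activator Nlrc5 were listed at 0 in all 81 cells.

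In macrophage-like cells, 4 of 9 MHC class I genes were higher by at least 1 log2 unit and 1 was lower, where 11.3% and 12.9% of all genes tested were. B2m, the light chain of MHC class I, was higher by 4.14. It had 117.6 to 495.9 RPKM in the 5 cells, against a median of 27.1 RPKM in stromal-like cells. H2-D1, a heavy chain, was higher by 2.19 and reached 1 RPKM in 3 of 5 cells. Erap1 (1.45) and Tapbp (1.01) reached it in 2 of 5 cells each. The heavy chain gene H2-K1 was listed at 0 in all 5 cells, as were Tap1 and Tap2, and Pdia3 was lower (-1.43). Of the 7 cofactors, Uchl5, a deubiquitinase of the base, had 30.4 to 273.4 RPKM in macrophage-like cells, against a median of 0.233 RPKM in stromal-like cells, a difference of 4.61. Uchl5 and Psmd14 were thus both higher in all 5 macrophage-like cells than the stromal-like median. Irf8, a transcription factor of the myeloid lineage and of the interferon response, was higher by 4.17. The cofactors Shfm1 (-2.67) and Txnl1 (-2.27) were lower. Of the 6 genes of the assembly list 0 were higher and 3 lower: Psmg2 (-1.74), the inhibitor gene Psmf1 (-1.27) and Pomp (-1.11). Pomp depended on the shallow cell C3, and its difference was 0.34 without that cell.

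In epithelial-like cells 2 of 6 genes of the assembly list were higher (Psmg1 by 2.57 and Psmg2 by 1.87) and 0 lower. Of the cofactors, 3 of 7 were higher (Txnl1 by 2.51, AI314180 by 2.12 and Shfm1 by 1.01) and 2 lower. Among all genes tested 18.2% were higher and 5.68% lower. The shuttle gene Ubqln4 was higher by 3.09 and the transcription factor gene Nfe2l3 by 2.64, whereas B2m was lower by 1.10. In the 2 endocrine-like cells 4 of 6 genes of the assembly list, 4 of 7 cofactors and 5 of 10 shuttle genes were higher. Among all genes tested 24% were higher, and among widely detected genes 31.9%. No gene of the assembly, cofactor and shuttle lists was lower, where 12.2% and 21.8% were. The other lists differed: 0 of 8 transcription regulators were higher and 1 lower (Irf1, -1.08). Of the MHC class I genes, 3 of 9 were higher and 1 lower (Pdia3, -1.55), and of the ubiquitin genes 2 of 4 were higher and 0 lower. Of the genes counted as higher, Psmg3 (-0.26), Psmg4 (-2.11), Nploc4 (-0.98), H2-D1 (-0.17) and H2-K1 (-0.17) changed direction without C24, and Uchl5 (-0.54) without C56. The largest differences were those of Ubqln2 (4.36) and Ubqln4 (3.36). Between cycling and non-cycling stromal-like cells 2 of 6 assembly-list genes were higher, the inhibitor gene Psmf1 by 1.28 and Psmg2 by 1.05. The ubiquitin-activating enzyme Uba1 was higher by 1.26, and no gene of the 6 lists was lower by 1 log2 unit. Among all genes tested 5.26% were higher and 0.846% lower.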

How the data were processed

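The authors deposited 1 table of values per transcript and cell for 81 cells, with mm9 coordinates, per the labels and the file's header. CASAVA 1.8.2 and the build mm9 are listed in the submitters' processing notes. The unit, aligner, counting tool and annotation are not given in the sources used. The deposited values were read as RPKM, since multiplying a low value by its transcript length gave close to a whole read count (within 0.15) for a median of 80.1% of values per cell. The worth of 1 read gave estimated reads per cell. No columns were left out.

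Levels were put on the log2(RPKM + 1) scale, where differences of low genes are understated. A gene was tested where it was above 0 in at least 3 cells. Cells were classed by markers at 10 RPKM or more: 3 or more for the macrophage, epithelial, endocrine and endothelial lists, otherwise 2 or more stromal markers, and 5 or more of 25 G2/M genes for cycling. No doublet caller was run. Since the cells are 1 sample, no p-values were computed, and a gene at least 1 log2 unit apart is described as higher or lower, beside the share of all genes so placed. Intervals for shares are exact Clopper-Pearson, 95%.

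Genes named are the catalytic, interferon-induced and PA28 genes, the 3 highest and 3 lowest of each role, members at least 1 log2 unit apart (at most 8 each way), the 2 highest and at most 4 differing genes of a pathway list, and 10 genes that track the subunits. Some pathway genes are not reported here. The members and lists were chosen with earlier results of these data known. Of the 44 members, 6 overlap another gene in mm9 (Psma3, Psma4, Psmb5, Psmd1, Psme1 and Psmc3ip), and whether counting used strand is not given, so reads of the partners cannot be told apart. Shared sequence was measured as 50-base windows of GENCODE vM21 transcripts. The calculations were run in Python 3.11.15 with pandas 2.3.3, numpy 2.4.6 and scipy 1.17.1 and tested on simulated data. Alternatives were the sum of transcript rows, a pseudocount of 0.1, other gates and filters, scaling to a common total, and leaving out shallow or single cells.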

Additional observations from a re-analysis of the deposited data

How the results depend on the processing

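No paired analysis was possible because the labels give 1 group of cells with no replicate number. The median difference of the 31 genes kept its sign in the epithelial-like, endocrine-like and cycling comparisons under every alternative run, at 0.78 to 1.47, 0.89 to 1.49 and 0.43 to 0.99, and in macrophage-like cells it lay at -0.34 to -0.02. With each cell left out in turn the medians were 0.85 to 1.35 (epithelial-like), 1.20 to 1.796 (endocrine-like) and -0.44 to 0.19 (macrophage-like, above 0 without C31 or C54). The counts of higher and lower genes were then 14 to 18 and 0 to 1, 18 to 20 and 1 to 3, and 4 to 8 and 6 to 10. The macrophage-like count of higher genes was 3 against cycling stromal-like cells, and 1 gene was lower in epithelial-like cells with a pseudocount of 0.1 and in cycling cells among cells 1 to 48. The genes apart by 1 log2 unit in every setting were 10 of 17 (epithelial-like), 9 of 20 (endocrine-like), 7 of 12 (macrophage-like) and 3 of 10 (cycling).

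Single genes changed direction. In macrophage-like cells Pomp was -1.11 with all cells and 0.33 without the shallow cells. With each of the 5 cells left out in turn Pomp ranged from -1.75 to 0.34 (above 0 without C3) and Nploc4 from -0.091 (without C54) to 1.67. In endocrine-like cells the value was, without C24 and without C56 in that order, -0.89 and 3.29 for Psmb4, -1.44 and 3.77 for Psmd4, 0.38 and -2.42 for Psme4, -0.17 and 6.19 for H2-D1, -0.17 and 4.93 for H2-K1, -0.98 and 3.38 for Nploc4, -0.26 and 5.97 for Psmg3, -2.11 and 5.25 for Psmg4, -6.12 and 2.31 for Psma6, 4.70 and -0.36 for Psmd3, -3.74 and 0.99 for Psmd8, and 3.06 and -0.54 for Uchl5. Among cells 1 to 48, Psma1 was -1.53 and Uba1 -0.33 in cycling cells. The cause was not tested.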

Other observations

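Outside the proteasome, the genes that followed the mean of the 31 constitutive genes most closely over the 81 cells were led by tubulins. Among 2953 widely detected genes that are not members, the highest Pearson r was that of Tuba1b, an alpha tubulin (0.60), followed by the beta tubulin Tubb4b (0.52), Fam166a (0.51), the growth-related ErbB3-binding protein Pa2g4 (0.51) and Gng5, a G protein gamma subunit (0.50). Idh2, a mitochondrial isocitrate dehydrogenase, Ndufb8, a subunit of respiratory complex I, the beta tubulin Tubb5, the casein kinase subunit Csnk2b and Nsfl1c, a cofactor of the segregase Vcp, followed at 0.50 to 0.46. The median over the 2953 genes was 0.12. All points share their libraries and depth, and these values are a description with no test. All 10 genes were higher in cycling than in non-cycling stromal-like cells, by 0.97 (Idh2) to 2.89 (Tubb4b) on the log2 scale. Of the 2985 widely detected genes, 2039 were above 0 in that comparison. The 10 genes were picked by their r with a mean that was itself higher in cycling cells, so their direction is no separate result.

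The lowest values were those of Btg1, an antiproliferative gene (-0.45), Fam178a (-0.39), Mmp16, a membrane metalloproteinase (-0.39), Runx1t1 (-0.34) and Cdkn1c, a cell cycle inhibitor (-0.34). Each was lower in cycling than in non-cycling stromal-like cells, by 1.06 for Runx1t1 and 0.22 for Cdkn1c at the ends of the range. Of the 2985 widely detected genes, 946 were below 0. Since the low-end genes were picked by the same r, this direction is no separate result either. These low-end genes were picked with their values in view.

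The mean of the 31 genes had r = 0.50 with the number of G2/M genes at 10 RPKM or more over 81 cells, and 0.50 within the 65 stromal-like cells. By the well named in the deposited header, the median over cells of the mean of the 31 genes ranged from 3.91 to 4.86 over the plate columns and from 3.78 to 4.90 over the plate rows.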
